A study of Mus musculus with 9 samples.

Results

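Mitochondrial ribosomal proteins were followed across the liver transcriptomes of NSG mice, an immunodeficient strain. The set holds every Ensembl feature of the deposited expression table whose symbol begins with Mrpl or Mrps and a digit, without the pseudogenes named -ps, which gives 78 genes of 61473 features in all. All 78 were above 0 in every library, and all 78 passed the filter of a mean of at least 1 TPM (a unit of transcript level already divided by transcript length and library total). Of the 9 libraries, 3 followed tail vein injection of extracellular vesicles (EVs) from MDA-MB-231, a triple-negative line of human breast cancer. Another 3 followed EVs from MCF-10A, human breast epithelial cells that do not form tumours, and the last 3 followed phosphate-buffered saline (PBS). Injections went on for 5 weeks in each group, and all mice are labelled WT. The age and sex of the mice and the EV dose are not given in the sources used here. By its title the series is about cholesterol homeostasis and the miR-9-5p that cancer cells secrete. Separate mice are not stated for the numbered samples, and the tests therefore rest on the spread between these samples, which may be partly technical.

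Mitochondria carry their own ribosome, which translates the few membrane proteins of the respiratory chain encoded by mitochondrial DNA. It is built from mitochondrially encoded ribosomal RNA and from proteins that are encoded in the nucleus, made in the cytosol and imported. Some of these proteins descend from bacterial ribosomal proteins, and others were added in the mitochondrial lineage. Hepatocytes are rich in mitochondria, and loss of mitochondrial translation is known to disturb the respiratory chain in liver as in other tissues. The roles given below come from work on mammalian mitoribosomes, mostly human, bovine and porcine. By these roles, 26 of the 78 genes encode the small subunit, which reads the message, and 51 the large subunit, which joins amino acids. The large subunit count includes Mrps30 and Mrps18a, whose proteins sit there in spite of their names. The remaining gene, Mrps36, encodes a component of the mitochondrial 2-oxoglutarate dehydrogenase complex. There were 46 genes with a bacterial counterpart and 31 specific to mitochondria. Of the paralogs related to bacterial S18, Mrps18c was counted among the 46, and Mrps18a and Mrps18b among the 31.

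Promoters from 250 bases before to 50 bases after the annotated start are shown for the members with the smallest p-values in the comparisons below that have a single entry in the RefSeq promoter table of build GRCm38.p6. The intervals are chr9:105053018-105053317 for Mrpl3, chr11:88204138-88204437 for Mrps23, chr13:99344536-99344835 for Mrps27, chr5:31613701-31614000 for Mrpl33 and chr11:120484387-120484686 for Mrpl12, all on the plus strand. Capitals mark matches, on either strand, to CCGGAAG (the core bound by ETS family factors such as GABPA), AAGATGGC (YY1) and GCATGCGC (NRF1).
Mrpl3: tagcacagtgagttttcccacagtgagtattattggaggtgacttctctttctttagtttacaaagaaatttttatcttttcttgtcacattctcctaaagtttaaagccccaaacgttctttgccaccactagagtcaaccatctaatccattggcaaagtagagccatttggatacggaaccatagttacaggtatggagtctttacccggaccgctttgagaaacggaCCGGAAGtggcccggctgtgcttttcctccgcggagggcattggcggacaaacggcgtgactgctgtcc
Mrps23: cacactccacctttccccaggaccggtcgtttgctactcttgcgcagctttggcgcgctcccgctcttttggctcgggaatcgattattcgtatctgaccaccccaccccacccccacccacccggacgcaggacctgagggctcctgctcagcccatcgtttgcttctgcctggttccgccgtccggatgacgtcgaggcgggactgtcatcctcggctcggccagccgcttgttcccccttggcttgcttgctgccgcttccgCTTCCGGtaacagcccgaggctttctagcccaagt
Mrps27: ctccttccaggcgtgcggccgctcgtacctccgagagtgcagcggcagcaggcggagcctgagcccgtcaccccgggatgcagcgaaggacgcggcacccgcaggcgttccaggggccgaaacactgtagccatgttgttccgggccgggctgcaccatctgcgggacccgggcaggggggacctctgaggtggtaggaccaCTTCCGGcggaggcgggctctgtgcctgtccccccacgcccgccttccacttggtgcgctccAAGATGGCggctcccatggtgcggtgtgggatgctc
Mrpl33: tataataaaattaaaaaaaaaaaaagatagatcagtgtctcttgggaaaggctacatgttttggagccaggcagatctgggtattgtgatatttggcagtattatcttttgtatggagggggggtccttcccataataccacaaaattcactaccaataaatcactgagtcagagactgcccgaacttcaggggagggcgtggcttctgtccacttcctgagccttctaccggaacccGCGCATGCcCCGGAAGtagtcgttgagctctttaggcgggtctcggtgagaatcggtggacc
Mrpl12: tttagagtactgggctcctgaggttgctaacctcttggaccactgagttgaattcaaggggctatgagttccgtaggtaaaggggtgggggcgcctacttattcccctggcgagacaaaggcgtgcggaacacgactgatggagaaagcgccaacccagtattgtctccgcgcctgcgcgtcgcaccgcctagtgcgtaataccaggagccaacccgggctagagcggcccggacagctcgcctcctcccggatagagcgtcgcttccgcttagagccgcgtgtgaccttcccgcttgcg
Mrpl3, Mrps23, Mrps27 and Mrpl33 held the ETS letters, Mrps27 also those of YY1 and Mrpl33 also those of NRF1, while the Mrpl12 window held none of the letters searched. Of the 78 members, 69 matched the table by symbol, with 75 promoters between them. The ETS letters stood in at least 1 promoter of 26 of the 69 (37.7%), against 9.93% of the 27025 genes in the table. YY1 letters stood in 12 members (17.4%, against 3.19% of all genes) and NRF1 letters in 8 (11.6%, against 3.05%). The TATA box letters TATAAA, searched in the same way, stood in 5 members (7.25%, against 15.7% of all genes), and the E-box CACGTG also in 5 (7.25%, against 8.09%). ETS and YY1 letters can share 3 bases, but in the 3 members that had both, Mrps12, Mrps18a and Mrps27, they did not overlap. In 31 members none of the ETS, YY1 and NRF1 letters was found. These are matches of letters in short windows and no measurement of binding. The genes of the table were not chosen by expression, and the members were not set beside other expressed genes.

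The samples looked like liver: the summed level of 5 hepatocyte markers (Alb, Apoa1, Ttr, Cps1 and Serpina1c) was between 38280 and 96364 TPM in all 9 libraries. Sequencing depth cannot be read from TPM and is unknown here. Several libraries stood apart. In PBS 1, 26.3% of the TPM came from mitochondrially encoded genes, against 4.96% to 12.1% in the other 8. MCF-10A EV 1 held 5068 TPM of 5 neutrophil markers and 14690 TPM of 5 erythroid markers, against at most 183 and 3818 TPM elsewhere. PBS 2 held 327 TPM of 5 adipocyte markers, against at most 10.5 TPM in the other 8. The MCF-10A EV columns summed to 979351, 946777 and 934986 TPM, with all 6059 assembled loci at 0. The other 6 columns held 1.21% to 5.70% of their TPM in assembled loci. No source used here says whether the MCF-10A EV columns were quantified in the same way as the other 6, so that in both comparisons that hold MCF-10A EV a difference in quantification cannot be told apart from one between the groups. In bulk tissue, fewer cells of a type and less RNA per cell cannot be told apart.

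The members spanned a wide range of levels. Their mean TPM over the 9 libraries had a median of 32.5 and ran from 2.48 for Mrpl19 to 288 for Mrpl52. Mrpl52, a mitochondria-specific protein of the large subunit, stood at 198, 252 and 373 TPM in MDA-MB-231 EV livers, 266, 387 and 324 TPM in MCF-10A EV livers and 190.1, 272 and 329 TPM in PBS livers. Mrps21, a small subunit protein with a bacterial counterpart, came next, with 99.4, 229 and 322 TPM in MDA-MB-231 EV livers, 146, 284 and 275 TPM in MCF-10A EV livers and 260.1, 204 and 329 TPM in PBS livers. In both genes the groups overlapped. The order went on with Mrpl14 (mean 188 TPM), Mrpl30 (108 TPM) and Mrpl20 (102 TPM), which all encode large subunit proteins with a bacterial counterpart. The ranges of Mrpl52 and Mrps21 over the libraries overlapped, and so did those of Mrpl30 and Mrpl20. Within libraries, Mrpl52 was above Mrps21 in all but PBS 1, by a small margin in PBS 3 (329.2 against 329.1 TPM). Mrpl20 was above Mrpl30 in PBS 1, MCF-10A EV 3 and MDA-MB-231 EV 3 and below it elsewhere.

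At the low end stood Mrpl19, at 2.19, 3.14 and 2.90 TPM in MDA-MB-231 EV livers, 4.01, 1.37 and 2.25 TPM in MCF-10A EV livers and 1.96, 2.63 and 1.89 TPM in PBS livers. Mrpl1 averaged 5.43 TPM, Mrps30 5.86 TPM, Mrpl44 8.91 TPM and Mrps22 9.17 TPM over the 9 libraries. Mrpl19 and Mrpl1 encode bacterial-type proteins of the large subunit, Mrpl44 a large subunit protein with a fold like that of RNase III, and Mrps22 a mitochondria-specific protein of the small subunit. In all, 7 members had a mean under 10 TPM, 24 under 20 TPM, 54 under 50 TPM and 73 under 100 TPM. Mean TPM and the length of the longest coding transcript were inversely related across the 78 genes (Spearman rho -0.38, a description over genes that share the same libraries).

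Between libraries the members varied less than the tested features as a whole, which were not matched on level. The highest library of a member was a median 2.92 times its lowest, against 4.65 times for the 12017 tested features above 0 in all libraries. It was over 3 times the lowest in 37 of the 78 members, against 76.5% of those features, and over 10 times in 4 members, against 20.8%. The ratio was lowest for Mrpl10 (1.51 times), which encodes a stalk base protein, and next for Mrpl58, a peptidyl-tRNA hydrolase built into the large subunit (1.51 times), Mrps15, a small subunit protein of bacterial descent (1.51 times), and Mrpl45 (1.53 times). Mrpl10 stood at 31.4, 30.8 and 26.1 TPM in MDA-MB-231 EV livers, 30.2, 27.4 and 20.8 TPM in MCF-10A EV livers and 24.8, 26.1 and 28.6 TPM in PBS livers. Mrpl45, whose protein lies at the exit of the peptide tunnel and holds the ribosome at the inner membrane, stood at 10.2, 9.61 and 10.9 TPM in MDA-MB-231 EV livers, 11.2, 8.65 and 8.52 TPM in MCF-10A EV livers and 10.7, 7.34 and 9.65 TPM in PBS livers. The 4 members over 10 times were Mrpl23 (22.9 times), Mrpl44 (11.8 times), Mrps23 (11.4 times) and Mrpl16 (10.97 times).

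Most of this variation lay within the groups. The share of a member's variance on the log2(TPM + 1) scale that lay between the 3 groups had a median of 15.7%, against 15.6% over all 12860 tested features. It was over 50% in 6 of 78 members, against 7.16% of features. PBS 1 was the lowest library in 39 of the 78 members, and MDA-MB-231 EV 2 the highest in 24. The median deviation of the 78 members from their own means was 0.28 on the log2 scale in MDA-MB-231 EV 2 and -0.53 in PBS 1. In the other 7 libraries it lay between -0.19 and 0.21. The part of the high mitochondrial share of PBS 1 in its low values was not tested.

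The deviations also followed libraries from different groups. Across the 78 members, those of MDA-MB-231 EV 1 and MCF-10A EV 1 had a Pearson r of 0.76, those of MDA-MB-231 EV 2 and MCF-10A EV 1 of 0.67, and those of MDA-MB-231 EV 3 and PBS 1 of 0.72. Over all 12860 features the same pairs gave 0.25, 0.18 and 0.61. PBS 3 and MCF-10A EV 2 had 0.69, against 0.08 over all features, and PBS 2 and MDA-MB-231 EV 2 had 0.64, against 0.28. Other pairs from different groups ran opposite, down to -0.75 for MCF-10A EV 3 and MDA-MB-231 EV 1. In MDA-MB-231 EV 1 and MCF-10A EV 1 the deviations ran against the members' mean level (Spearman rho -0.55 and -0.56), whereas over all features rho was 0.07 and -0.00098. In these libraries some scarce members, such as Mrps23, Mrpl44 and Mrpl16, were high, and some abundant ones, such as Mrps21, Mrps35 and Mrpl23, were low. Not all members followed. Mrpl17, with a mean of 73.9 TPM, was at 108 TPM in MDA-MB-231 EV 1 and 97.2 TPM in MCF-10A EV 1. Mrpl19, with a mean of 2.48 TPM, was at 2.19 TPM in MDA-MB-231 EV 1. These values are descriptions over genes of the same libraries, and the deviations of a gene sum to 0 over the 9 libraries.

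**Figure D1:**
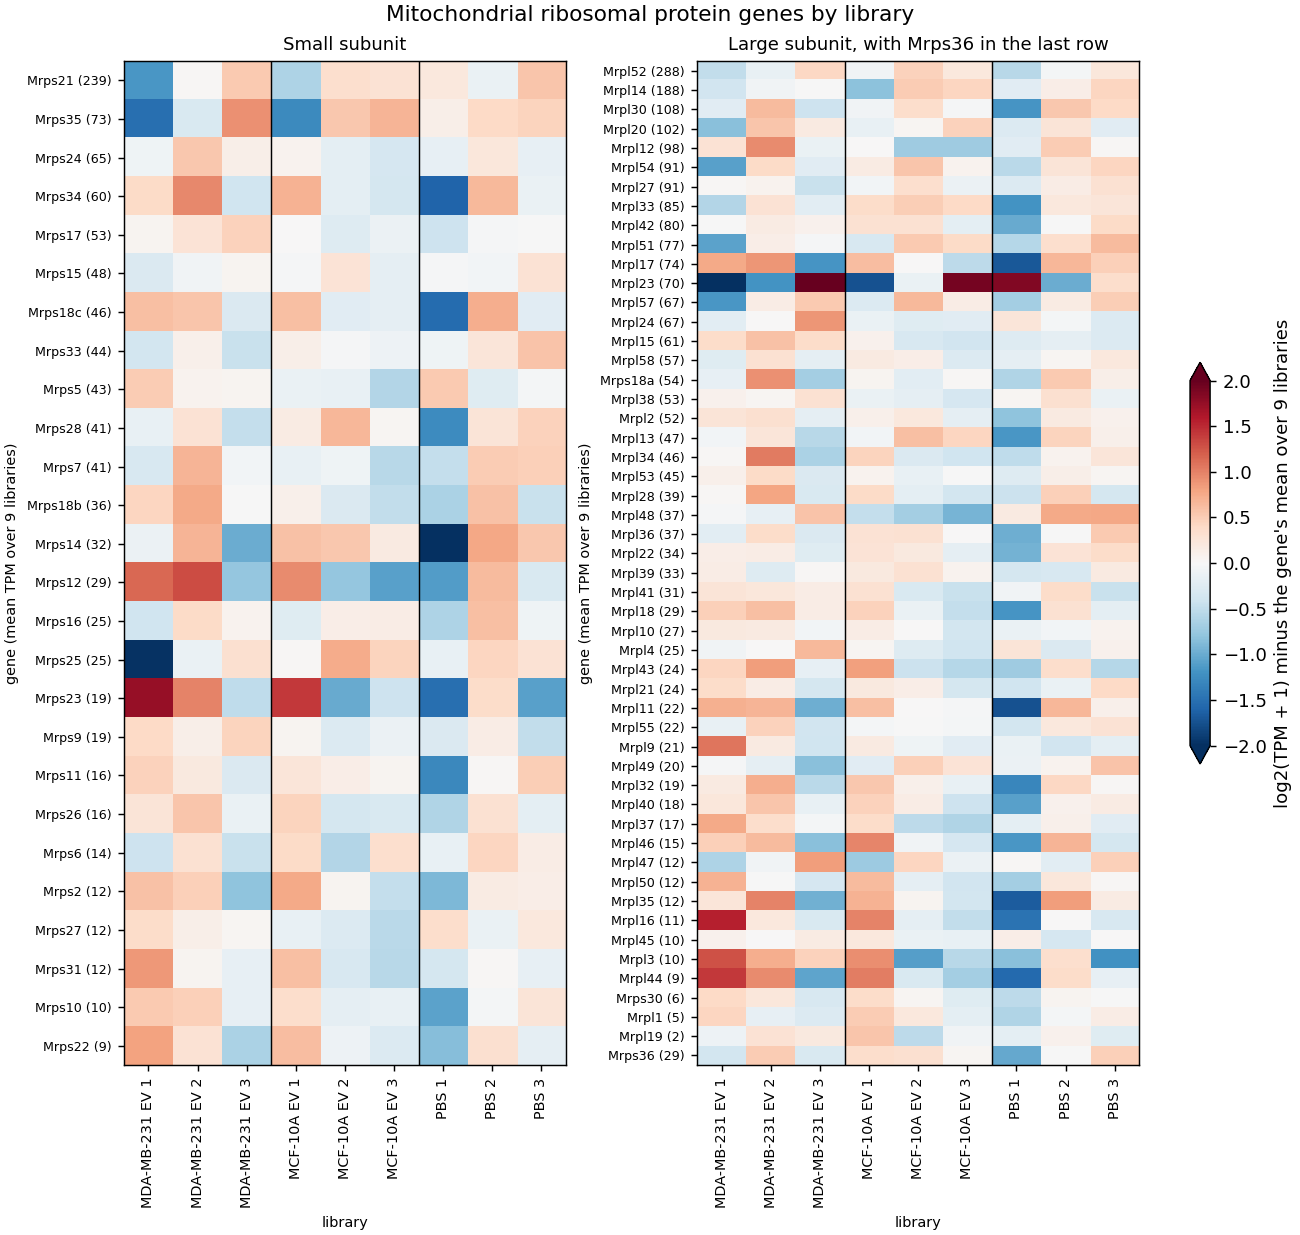
Deviation of each library (columns, by group) from the gene's mean over 9 libraries on the log2(TPM + 1) scale, for the small subunit (left) and for the large subunit and Mrps36 (right), with genes ordered by mean TPM, which stands in brackets. PBS 1 is the lowest library in 39 of the 78 rows, and MDA-MB-231 EV 1 and MCF-10A EV 1 share much of their pattern (r 0.76).

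The first comparison asks how livers that received EVs of the cancer line differed from livers that received none. No member was called in MDA-MB-231 EV relative to PBS. The test was limma's moderated test on log2(TPM + 1), with p-values adjusted by Benjamini and Hochberg over all 12860 tested features and a threshold of 0.05. It called 0 of 78 members and 0 of 12860 features (0%). At an unadjusted p under 0.05 it gave 1 member, Mrpl3, and 199 features (1.55%). The median log2 difference of the members was 0.17, against 0.21 over all features. It was 0.25 in the 26 small subunit genes and 0.16 in the 51 large subunit genes, and 0.19 in genes with a bacterial counterpart against 0.15 in those specific to mitochondria. Differences were above 0 in 60 of 78 members (76.9%, against 69.7% of features). The sign of the median depended on scaling and on 1 library: it was -0.08 after quantile normalization and -0.06 without PBS 1. Without PBS 1 the median of all features was 0.28, so it did not move with that of the members.

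Mrpl3, whose protein reaches towards the peptidyl transferase centre, stood at 20.6, 13.7 and 11.3 TPM in MDA-MB-231 EV livers and 4.0, 10.3 and 2.83 TPM in PBS livers. All 3 values with EVs lay above all 3 without. Its log2 difference was 1.39 ± 0.59 (SE; 95% interval 0.09 to 2.69), with adjusted p = 1 by limma. Mrpl15, a large subunit protein with a bacterial counterpart, was at 76.4, 88.7 and 76.5 TPM in MDA-MB-231 EV livers and 48.9, 51.9 and 48.7 TPM in PBS livers, also without overlap. Its log2 difference was 0.68 ± 0.34 (SE; adjusted p = 1 by limma). Mrps17, a small subunit protein of bacterial descent, was the third gene without overlap, at 53.9, 63.1 and 72.03 TPM in MDA-MB-231 EV livers and 38.7, 51.2 and 51.8 TPM in PBS livers. These 3 make up 3.85% of the members, against 6.03% of features without overlap in either direction and 5.23% with the EV livers higher, and a share under the background is no result about the members.

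Mrps23, a mitochondria-specific protein of the small subunit, had the largest positive difference but wide groups. It stood at 49.6, 28.9 and 9.67 TPM in MDA-MB-231 EV livers and 4.34, 18.6 and 6.13 TPM in PBS livers, so that the groups overlapped, with a log2 difference of 1.48 ± 0.77 (SE; adjusted p = 1 by limma). Mrpl16, which lies near the tRNA sites of the large subunit, followed with 27.97, 10.5 and 6.94 TPM in MDA-MB-231 EV livers and 2.55, 8.95 and 6.85 TPM in PBS livers. The lowest of its 3 PBS values came from PBS 1 and the highest of its EV values from MDA-MB-231 EV 1. Without MDA-MB-231 EV 1 the difference was 0.55, and without PBS 1 it was 0.64. With all libraries the log2 difference was 1.08 ± 0.61 (SE), and that of Mrpl44 was 0.89 ± 0.74 (SE), with 20.5, 14.5 and 2.87 TPM in MDA-MB-231 EV livers and 1.74, 9.38 and 6.21 TPM in PBS livers.

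On the negative side, Mrpl23, a protein at the tunnel exit, was at 7.99, 17 and 183 TPM in MDA-MB-231 EV livers and 148, 19.6 and 51.6 TPM in PBS livers. Single libraries carried both groups, its log2 difference of -0.81 ± 1.21 (SE) was smaller than its error, and without MDA-MB-231 EV 1 it was 0.08. Mrps25, a mitochondria-specific protein of the small subunit, stood at 4.91, 20.2 and 28.04 TPM in MDA-MB-231 EV livers and 19.9, 30.3 and 27.2 TPM in PBS livers, with a log2 difference of -0.78 ± 0.56 (SE). MDA-MB-231 EV 1 was far below the other 2 of its group, and without it the difference was -0.09. The differences of Mrps35 (-0.62 ± 0.67, SE) and Mrpl49 (-0.52 ± 0.39, SE), which are both specific to mitochondria, also had adjusted p = 1 by limma, and that of Mrps35 was -0.014 without MDA-MB-231 EV 1. In 15 of the 78 members (19.2%, against 6.53% of features) the 95% interval of the difference lay within -1 to 1. A change of 2-fold or more in TPM + 1 thus lay outside it. For the others the interval reached beyond a 2-fold change in TPM + 1 in at least 1 direction. In low genes these limits stand for a larger change in TPM itself.

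**Figure D2:**
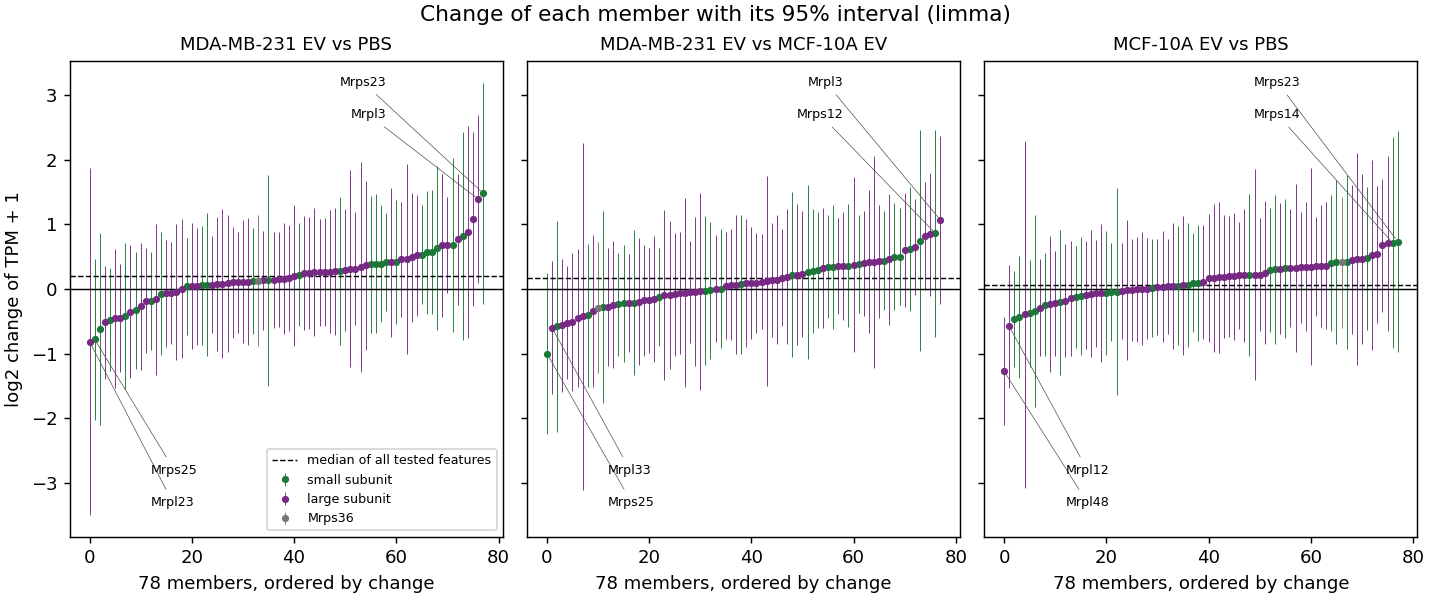
Difference of each of the 78 members on the log2(TPM + 1) scale with its 95% interval from limma, ordered by size, in MDA-MB-231 EV relative to PBS (left), MDA-MB-231 EV relative to MCF-10A EV (middle) and MCF-10A EV relative to PBS (right), coloured by subunit; the dashed line is the median of all 12860 tested features. Intervals that leave out 0 belong to Mrpl3 on the left and to Mrpl48 on the right.

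The second comparison sets EVs of the cancer line against EVs of the non-tumorigenic line. In MDA-MB-231 EV relative to MCF-10A EV limma called 0 of 78 members and 28 of 12860 features (0.218%). At an unadjusted p under 0.05 there were 0 members and 492 features (3.83%). A fit of these groups alone, paired by replicate number, called 0 members and 12 features. The limit that the MCF-10A EV columns may have been quantified in another way holds for all values of this comparison and of the next. The median log2 difference was 0.08 in the members and 0.17 over all features, with 0.24 in the small and 0.07 in the large subunit. It was -0.17 after quantile normalization, where the median of all features was -0.0023, and -0.06 without MDA-MB-231 EV 2. Differences were above 0 in 45 of 78 members (57.7%, against 65% of features).

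The groups did not overlap in 8 members (10.3%, against 6.53% of features), a share that was not tested against the background. MDA-MB-231 EV livers had the higher values in 7 of them (8.97%, against 4.73% of features), Mrpl15, Mrpl38, Mrpl48, Mrps5, Mrps9, Mrps17 and Mrps27, and the lower values in Mrpl33 (1 of 78, against 1.8% of features). Mrpl15 was at 76.4, 88.7 and 76.5 TPM in MDA-MB-231 EV livers and 62.4, 46.8 and 45.2 TPM in MCF-10A EV livers, a log2 difference of 0.65 ± 0.34 (SE; adjusted p = 1 by limma). Mrps17 stood at 52.03, 43.05 and 48 TPM in MCF-10A EV livers. In Mrpl15 and Mrps17 the MDA-MB-231 EV values thus lay above both other groups. The share of all features with that pattern was not counted, so it is no result about the members. The 2 comparisons share the MDA-MB-231 EV libraries. Mrpl48, in the central protuberance of the large subunit, stood at 33.6, 30.3 and 51.4 TPM in MDA-MB-231 EV livers and 24.2, 20.96 and 17.4 TPM in MCF-10A EV livers, with the smallest p of the members (log2 difference 0.82 ± 0.38, SE; adjusted p = 1 by limma). Mrpl38, Mrps5, Mrps9 and Mrps27 differed by between 0.36 and 0.50 on the log2 scale. Among them, Mrps27, a pentatricopeptide repeat protein of the small subunit, was at 15.3, 12.8 and 12.01 TPM in MDA-MB-231 EV livers and 10.4, 9.45 and 7.67 TPM in MCF-10A EV livers.

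Mrpl12 encodes the stalk protein that recruits translation factors, and its human form has been reported to bind the mitochondrial RNA polymerase. It was at 113, 178 and 83.8 TPM in MDA-MB-231 EV livers and 92.3, 55.6 and 55.8 TPM in MCF-10A EV livers. MDA-MB-231 EV 3 lay below MCF-10A EV 1, so the groups overlapped, with a log2 difference of 0.84 ± 0.43 (SE; adjusted p = 1 by limma). Mrpl3 was at 15.9, 3.15 and 5.04 TPM in MCF-10A EV livers, which gave the largest positive difference (1.06 ± 0.59, SE), with MCF-10A EV 1 above 2 of the 3 MDA-MB-231 EV values. Mrps12, a decoding centre protein, stood at 52.9, 58.96 and 13.1 TPM in MDA-MB-231 EV livers and 45.8, 13.2 and 10.4 TPM in MCF-10A EV livers (log2 difference 0.86 ± 0.72, SE), with 1 library of each group apart from the other 2. Mrps25 had the largest negative difference, -0.997 ± 0.56 (SE), with 22.6, 37.96 and 30.6 TPM in MCF-10A EV livers. Without MDA-MB-231 EV 1, where it was lowest, the difference was -0.31. In Mrpl3, Mrpl12 and Mrps12 each MDA-MB-231 EV library was above the MCF-10A EV library of the same number. That held in 19 of the 78 members (24.4%, against 19.4% of features). Each was below it in 9 members (11.5%, against 6.92% of features). In the paired fit the adjusted p by limma was 0.878 for Mrpl3 and 0.906 for Mrpl12 and Mrps12. The pairing was chosen from these same data.

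Mrpl33, a short large subunit protein of bacterial descent, stood at 52.9, 97.3 and 68.6 TPM in MDA-MB-231 EV livers and 104, 113 and 106 TPM in MCF-10A EV livers. All MDA-MB-231 EV values were below all MCF-10A EV values, but the log2 difference of -0.60 ± 0.47 (SE) had adjusted p = 1 by limma. Mrps14, a small subunit protein with a bacterial counterpart (-0.58 ± 0.74, SE), and Mrpl54, a mitochondria-specific protein of the large subunit (-0.56 ± 0.47, SE), likewise had adjusted p = 1 by limma. The 95% interval lay within -1 to 1 in 12 members (15.4%, against 6.86% of features).

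The third comparison sets the EVs of the non-tumorigenic line against PBS, and therefore shares its libraries with the other two. In MCF-10A EV relative to PBS limma called 0 of 78 members and 25 of 12860 features (0.194%). At an unadjusted p under 0.05 there were 1 member, Mrpl48, and 411 features (3.2%). The median log2 difference was 0.10 in the members and 0.07 over all features, with 0.06 in the small and 0.17 in the large subunit, and 51 of 78 members were above 0 (65.4%, against 56.8%). Scaling to nuclear genes gave 0.0088, and the median was -0.11 without PBS 1, against 0.09 over all features.

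Mrpl48 stood at 24.2, 20.96 and 17.4 TPM in MCF-10A EV livers and 39, 58.8 and 59.2 TPM in PBS livers. The highest MCF-10A EV value was below the lowest PBS value. Its log2 difference was -1.27 ± 0.38 (SE; 95% interval -2.11 to -0.44), with adjusted p = 0.713 by limma, which is over the threshold. With limma's array weights, which give less weight to libraries that fit poorly, Mrpl48 was called, at -1.57 with adjusted p = 0.000545, in a fit that called 548 features. Over the other settings, in which it was not called, its adjusted p was between 0.179 and 1. In MDA-MB-231 EV relative to PBS its log2 difference was -0.45 ± 0.38 (SE; adjusted p = 1 by limma).

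The groups also did not overlap in Mrps27 and Mrpl33, which with Mrpl48 makes 3 members (3.85%, against 7.69% of features). Mrpl33 was the 1 with higher values in MCF-10A EV livers (background 2.95%), and Mrpl48 and Mrps27 the 2 with lower values (background 4.74%). Mrps27 was at 10.4, 9.45 and 7.67 TPM in MCF-10A EV livers and 15.1, 10.5 and 13.6 TPM in PBS livers, with a log2 difference of -0.46 ± 0.34 (SE; adjusted p = 1 by limma). Mrpl33 was at 104, 113 and 106 TPM in MCF-10A EV livers and 34.1, 92.3 and 94.9 TPM in PBS livers, where PBS 1 lay far below the other 2 (log2 difference 0.67 ± 0.47, SE). Mrps23 (0.73 ± 0.77, SE), Mrps14 (0.72 ± 0.74, SE) and Mrpl16 (0.70 ± 0.61, SE) had the largest positive log2 differences. Each of these has its lowest value in PBS 1, and without that library the difference of Mrps14 turned to -0.23. Mrpl12 (-0.58 ± 0.43, SE) and Mrps7 (-0.43 ± 0.43, SE), whose protein belongs to the head of the small subunit, were on the negative side, with adjusted p = 1 by limma. In 17 members (21.8%, against 9.6% of features) the 95% interval lay within -1 to 1.

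Members whose names hide their place were not called either. Mrps30, in the large subunit, averaged 6.37 ± 1.82 TPM in MDA-MB-231 EV, 6.08 ± 1.51 TPM in MCF-10A EV and 5.12 ± 1.24 TPM in PBS livers (SD, n = 3 each). The 3 mammalian paralogs related to bacterial S18 lie at different places, Mrps18a in the large subunit and Mrps18b and Mrps18c in the small. Mrps18a averaged 57.8 ± 34.6 TPM in MDA-MB-231 EV, 49.4 ± 4.88 TPM in MCF-10A EV and 54.1 ± 20.2 TPM in PBS livers. Mrps18b averaged 46.7 ± 12.2 TPM in MDA-MB-231 EV, 29.7 ± 6.59 TPM in MCF-10A EV and 32.9 ± 16.6 TPM in PBS livers. Mrps18c averaged 53.2 ± 16.8 TPM in MDA-MB-231 EV, 45.4 ± 16.2 TPM in MCF-10A EV and 39.6 ± 28.3 TPM in PBS livers. Over the 9 libraries the means of the 3 paralogs were 53.8, 36.4 and 46.1 TPM, and their ranges overlapped. Mrps36 averaged 27.9 ± 10.5 TPM in MDA-MB-231 EV, 33.1 ± 3.84 TPM in MCF-10A EV and 26.8 ± 13.1 TPM in PBS livers.

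Summed over the 78 genes, the members held 0.259% to 0.421% of the TPM of a library. The sums were 3151, 4206 and 3579.9 TPM in MDA-MB-231 EV livers (mean 3646 ± 530.5, SD), 3484, 3758 and 3432 TPM in MCF-10A EV livers (mean 3558 ± 175, SD) and 2593, 3874 and 3896 TPM in PBS livers (mean 3454 ± 746, SD; n = 3 each). The groups overlapped, and PBS 1 was the lowest. After rescaling each library to the same total over nuclear genes, which leaves out mitochondrially encoded genes and assembled loci, the sums were 3416, 4483 and 4336 in MDA-MB-231 EV, 3770.0, 4282 and 4050.4 in MCF-10A EV and 3666, 4502 and 4345 in PBS livers. On that scale MDA-MB-231 EV 1 was the lowest and the highest library was 1.32 times the lowest, against 1.62 times for the plain sums. The 3 most abundant members made up 13.8% to 24.7% of the sum.

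The ratio of summed messages between the subunits varied little, with the highest library at 1.16 times the lowest. Subunits and proteins were not measured, and abundant genes weigh most in these sums. The ratio of small to large subunit TPM was 0.417, 0.421 and 0.433 in MDA-MB-231 EV, 0.413, 0.390 and 0.395 in MCF-10A EV and 0.452, 0.429 and 0.419 in PBS livers. The MCF-10A EV ratios were the 3 lowest, and those of MDA-MB-231 EV and PBS overlapped. The mitochondrial ribosomal RNAs, mt-Rnr1 and mt-Rnr2, summed to 554, 2219 and 8823 TPM in MDA-MB-231 EV, 1492, 4121 and 7729.9 TPM in MCF-10A EV and 22063, 3308 and 2706 TPM in PBS livers. Their highest library was 39.8 times the lowest, with both extremes in the groups MDA-MB-231 EV and PBS. The log2 difference in MDA-MB-231 EV relative to PBS was -1.33 ± 1.07 for mt-Rnr1 and -1.50 ± 1.10 for mt-Rnr2 (SE; adjusted p = 1 by limma). The ratio of the 79 cytosolic ribosomal proteins to the members lay between 9.74 in PBS 1 and 14.0 in MDA-MB-231 EV 3.

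**Figure D3:**
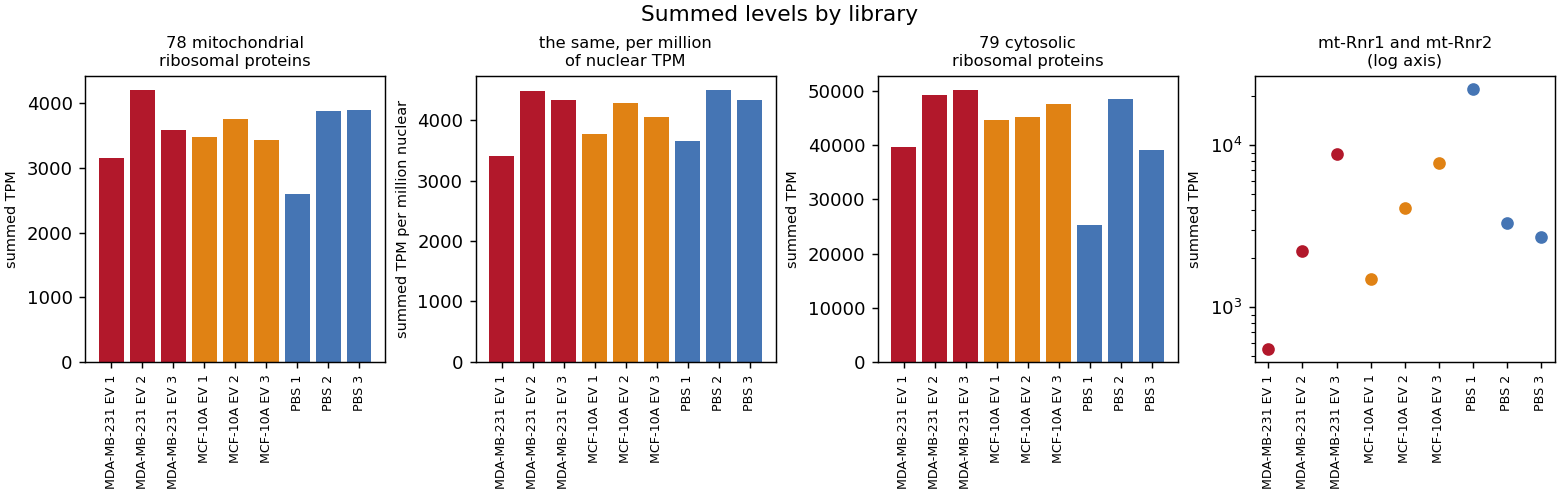
Summed level in each library (bars or points, coloured by group) of the 78 members in TPM, of the same after rescaling to nuclear genes, of 79 cytosolic ribosomal proteins in TPM and of the 2 mitochondrial ribosomal RNAs in TPM on a log axis. PBS 1 is the lowest bar for both protein sums in TPM, and the ribosomal RNAs run from 554 TPM in MDA-MB-231 EV 1 to 22063 TPM in PBS 1.

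Near-identical copies limit some values, since the reads of a gene and its copy can be divided between them in counting. In the GENCODE M21 transcripts (build GRCm38), 16 members had 19 copies of at least 95% identity over 80% of the copy. Of these copies, 10 were at 0 in all libraries and 4 reached 1 TPM. Mrpl23-ps1 is identical to Mrpl23 over 507 of its 580 bases and was at 93.6, 101 and 141 TPM in MDA-MB-231 EV, 86.7, 198 and 33.8 TPM in MCF-10A EV and 33.7, 118 and 124 TPM in PBS livers. In PBS 1 and MCF-10A EV 3, where the copy was lowest, Mrpl23 itself was high. In MDA-MB-231 EV 3, however, both Mrpl23 (183 TPM, its highest) and the copy (141 TPM, its second highest) were high. Added together, the pair ranged over 3.30 times between libraries, against 22.9 times for Mrpl23 alone, and its log2 differences were -0.06 ± 0.52, -0.06 ± 0.52 and -0.0034 ± 0.52 (SE) in MDA-MB-231 EV relative to PBS, MDA-MB-231 EV relative to MCF-10A EV and MCF-10A EV relative to PBS. The level of Mrpl23 is therefore uncertain.

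Mrpl48-ps, 98.1% identical to Mrpl48, stood at 10.6, 3.86 and 1.48 TPM in MDA-MB-231 EV, 6.60, 1.02 and 0 TPM in MCF-10A EV and 1.47, 4.27 and 2.36 TPM in PBS livers. With it added, the log2 difference of Mrpl48 in MCF-10A EV relative to PBS was -1.21 ± 0.39 (SE; adjusted p = 0.769 by limma), and in MDA-MB-231 EV relative to MCF-10A EV 0.89 ± 0.39 (SE; adjusted p = 1 by limma). Gm18736, a copy of Mrps10, reached 26.4 TPM, and Gm5776, a copy of Mrps33, 28.4 TPM. Exons of 33 members overlap those of another gene in that annotation, on the opposite strand in 28 and on the same strand in 8. The sources used here do not say whether the counting used strand, so reads of such pairs may not be told apart. Mrpl3, Mrpl12, Mrpl33, Mrpl48, Mrps25 and Mrps27 are among these members.

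Genes that serve the mitochondrial ribosome were set beside it, and none of the nuclear ones was called in any comparison. The 5 mitoribosomal proteins with other names had a median log2 difference of -0.08 in MDA-MB-231 EV relative to PBS, 0.11 in MDA-MB-231 EV relative to MCF-10A EV and, for MCF-10A EV relative to PBS, -0.15. For 23 tested assembly factors of 24 listed these medians were 0.13, 0.22 and 0.06, for 17 translation factors of 18 0.27, 0.36 and -0.0013, and for 21 mitochondrial aminoacyl-tRNA synthetases and related enzymes of 22 0.23, 0.29 and 0.06. The medians of all features in these comparisons were 0.21, 0.17 and 0.07. Without PBS 1 the medians in MDA-MB-231 EV relative to PBS were 0.33 for the proteins with other names, 0.29 for the assembly factors, 0.42 for the translation factors and 0.29 for the synthetases, against 0.28 over all features. In MCF-10A EV relative to PBS they were then -0.16, 0.09, -0.12 and -0.03 in the same order, against 0.09 over all features.

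The genes of these lists with the smallest p in MDA-MB-231 EV relative to PBS did not pass the threshold. Among the proteins with other names these were Gadd45gip1, in the large subunit (log2 difference -0.66 ± 0.47, SE), and Chchd1, in the small subunit (0.65 ± 0.58, SE). Ddx28, an RNA helicase that assembles the large subunit, was at 7.84, 4.66 and 6.34 TPM in MDA-MB-231 EV livers and 3.09, 4.12 and 2.30 TPM in PBS livers (log2 difference 0.80 ± 0.41, SE; adjusted p = 1 by limma). Mtg1, a GTPase of the same process, was at 21.8, 11.4 and 6.32 TPM in MDA-MB-231 EV livers and 5.21, 7.37 and 4.71 TPM in PBS livers (0.94 ± 0.49, SE). Slirp, which stabilises mitochondrial messenger RNA, was at 16.9, 26.9 and 50.8 TPM in MDA-MB-231 EV livers and 60.8, 45.5 and 63.4 TPM in PBS livers, a log2 difference of -0.95 ± 0.51 (SE; adjusted p = 1 by limma). The release factor Mtrf1 had 0.72 ± 0.42 (SE), the isoleucyl-tRNA synthetase Iars2 0.76 ± 0.47 (SE) and Gatc, a subunit of the mitochondrial glutamyl-tRNA amidotransferase, 0.85 ± 0.55 (SE) in the same comparison.

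Regulators of mitochondrial transcription and biogenesis had a median log2 difference of 0.39 over 14 tested genes of 15 in MDA-MB-231 EV relative to PBS, with 11 above 0. Tfam, which packages mitochondrial DNA and starts its transcription, was at 35.6, 9.65 and 5.09 TPM in MDA-MB-231 EV livers and 3.85, 5.04 and 5.90 TPM in PBS livers. MDA-MB-231 EV 1 alone was far above the rest, the groups overlapped, and the log2 difference was 1.18 ± 0.66 (SE; adjusted p = 1 by limma). Tfb2m, a mitochondrial transcription factor, had 0.48 ± 0.36 (SE) in that comparison. Over 73 tested nuclear genes of oxidative phosphorylation the median was 0.15 in MDA-MB-231 EV relative to PBS, -0.06 in MDA-MB-231 EV relative to MCF-10A EV and, for MCF-10A EV relative to PBS, 0.21. Over 79 cytosolic ribosomal proteins it was 0.41, 0.0036 and 0.38 in the same order. Without PBS 1 the medians relative to PBS were -0.25 in MDA-MB-231 EV and -0.20 in MCF-10A EV for oxidative phosphorylation, and 0.06 in both for the cytosolic ribosome. The smallest p in MDA-MB-231 EV relative to PBS belonged, in oxidative phosphorylation, to Sdha (log2 difference 1.23 ± 0.75, SE), a subunit of succinate dehydrogenase, and Cyc1 (0.78 ± 0.52, SE), cytochrome c1. In the cytosolic ribosome it belonged to Rps7 (1.75 ± 0.59, SE) and Rpl3 (1.21 ± 0.56, SE), again with adjusted p = 1 by limma. For the regulators, MDA-MB-231 EV relative to PBS without PBS 1 gave 0.53, against 0.28 over all features.

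The messages that the mitochondrial ribosome translates were set beside it last. The 13 mitochondrially encoded protein genes had a median log2 difference of -1.15 in MDA-MB-231 EV relative to PBS, 0.11 in MDA-MB-231 EV relative to MCF-10A EV and, for MCF-10A EV relative to PBS, -1.03. The only one called was mt-Co2, a subunit of cytochrome c oxidase, in both comparisons that hold MCF-10A EV. It stood at 681, 271 and 341 TPM in MDA-MB-231 EV livers, was listed at 0 in all 3 MCF-10A EV libraries and stood at 401, 202 and 69.1 TPM in PBS livers. Cells with mitochondria use this gene, so it is given only as listed at 0, and with no fold. Together the 13 genes summed to 64414, 47384 and 108499.9 TPM in MDA-MB-231 EV, 53629.9, 65045 and 79814 TPM in MCF-10A EV and 240647, 118035 and 78255 TPM in PBS livers, with PBS 1 the highest by far. In MDA-MB-231 EV relative to PBS the smallest p belonged to mt-Nd6, a subunit of complex I (log2 difference -1.36 ± 0.52, SE), and mt-Cytb, a subunit of complex III (-1.18 ± 0.51, SE), with adjusted p = 1 by limma. Without PBS 1 the median log2 difference of the 13 genes was -0.65 in MDA-MB-231 EV relative to PBS and -0.67 in MCF-10A EV relative to PBS.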

How the data were processed

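The 9 sequencing libraries of NSG mouse liver were made with the TruSeq RNA kit, per the labels' protocols. The deposited table holds TPM for each gene and library, made by the authors. Per the submitters' processing notes, the tools were HISAT2, StringTie and RSEM and the build GRCm39; their versions and order are not given in the sources used here. TPM keep no read depth, so no counting interval can be given. Samples were grouped by their titles.

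The TPM were used as deposited. They were tested as log2(TPM + 1), which understates the differences of low genes, with limma 3.58.1 in R 4.3.3. The fit had a mean per group over all 9 libraries and a trended prior variance, tests were two-sided, and the Benjamini-Hochberg adjustment ran over the 12860 Ensembl features with a mean of at least 1 TPM. A feature was called at an adjusted p under 0.05. Assembled loci were left out, since they are at 0 in the MCF-10A EV columns. The fit was tested on simulated data.

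Members are named that had the 4 largest differences in either direction (mean of at least 5 TPM) or the 3 smallest p-values in a comparison, the 5 highest or lowest means, or a role that needs a word. Of the other mitochondrial and ribosomal lists, the 2 genes with the smallest p in MDA-MB-231 EV relative to PBS are named; cell type markers are given as sums. Mrpl10, Mrpl58, Mrps15, the members without overlap between groups and the genes with copies were named after their values were seen, and so was mt-Co2. The members, lists and tests were chosen with earlier results of these data known. Copies were found with blastn 2.17.0 (at least 95% identity over 80% of the copy and 200 bases). Alternatives covered the pseudocount, filter, scaling, weights, prior, samples in the fit, each library left out and a replicate block. Across all features, MDA-MB-231 EV and MCF-10A EV libraries of the same number deviated together (r 0.34, 0.11 and 0.44), which was taken to pair them. Libraries of different numbers in these groups gave r from -0.34 to 0.12. The labels do not say what the numbers mark, so the pairing was chosen from these same data. Same-number pairs with PBS ran from -0.39 to 0.50 and were not taken as such. The largest r, 0.62, joined PBS 1 and MDA-MB-231 EV 3, which differ in number. The sum with copies and the paired fit of single comparisons were added after seeing the data.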

Additional observations from a re-analysis of the deposited data

How the results depend on the processing

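The number of members called was 0 in each of the 3 comparisons under all settings run but one: array weights gave 1 in MCF-10A EV relative to PBS (Mrpl48), and the cause was not tested. The medians of the members stayed within 1 SD (0.288 on the log2 scale, between libraries within groups) of the values reported. Over the libraries left out in turn the medians ran between -0.06 and 0.35 in MDA-MB-231 EV relative to PBS. They ran between -0.06 and 0.27 in MDA-MB-231 EV relative to MCF-10A EV, and -0.11 and 0.32 in MCF-10A EV relative to PBS. With array weights the last was -0.15. Quantile normalization moved the median of all features in MDA-MB-231 EV relative to PBS to 0.04, and scaling to nuclear genes to 0.099, against 0.21 as deposited. Of the named members, Mrpl23 in MDA-MB-231 EV relative to PBS ranged from -2.10 to 0.079 with 1 library left out, and turned to 0.079 without MDA-MB-231 EV 1. Mrps14 in MCF-10A EV relative to PBS turned to -0.15 with array weights, to -0.23 without PBS 1 (up to 1.25 with another library left out) and to -0.23 without PBS 1 and MDA-MB-231 EV 3. The cause of these turns was not tested. With 1 library left out, 20 of the 26 named differences moved by over 1.5 times under at least 1 omission, and 6 moved by less under each.

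Counts over all features moved more. In MDA-MB-231 EV relative to PBS, against 0 as reported, 24 were called without PBS 1, 5 without MDA-MB-231 EV 3 and 28 without both. In MDA-MB-231 EV relative to MCF-10A EV the 28 became 40 with a pseudocount of 0.1, 11 without the filter, 46 with array weights, 17 with only those groups fitted, and 13 to 31 with 1 library left out. In MCF-10A EV relative to PBS the 25 became 40, 12, 548 and 66 under the same settings, 14 to 59 with 1 library left out, and 85 without PBS 1 and MDA-MB-231 EV 3. With a replicate block 0 members were called in every comparison, and 0, 15 and 20 features, in MDA-MB-231 EV relative to PBS, MDA-MB-231 EV relative to MCF-10A EV and MCF-10A EV relative to PBS. With only the groups compared in the fit, the replicate block called 0, 12 and 21 features and 0 members in the same order.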

Other observations

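Mitochondrial chaperones and proteases, which fold and clear imported proteins, were described as a further list of 12 genes, all tested. Their median log2 difference was 0.56 in MDA-MB-231 EV relative to PBS (10 of 12 above 0, against 69.7% of features), 0.31 in MDA-MB-231 EV relative to MCF-10A EV, with 0.19 for MCF-10A EV relative to PBS, and none was called. Without PBS 1 the median was 0.22 in MDA-MB-231 EV relative to PBS and -0.08 in MCF-10A EV relative to PBS. Lonp1, the matrix protease, had 70.4, 35.9 and 36.2 TPM in MDA-MB-231 EV livers, 30.8, 22.8 and 17.1 TPM in MCF-10A EV livers and 20.1, 27.9 and 21.5 TPM in PBS livers. All its MDA-MB-231 EV values lay above those of both other groups, a pattern that was not counted over all features. The log2 difference was 0.95 ± 0.41 (SE; adjusted p = 1 by limma) against PBS and 0.95 ± 0.41 (SE; adjusted p = 1 by limma) against MCF-10A EV. Trap1, a mitochondrial chaperone of the Hsp90 family, had 0.75 ± 0.43 (SE; adjusted p = 1 by limma) against PBS.

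The summed level of 6 Kupffer cell markers was 439, 474 and 441 TPM in MDA-MB-231 EV livers, 1324, 188 and 236 TPM in MCF-10A EV livers and 229.6, 390.0 and 193 TPM in PBS livers. In MCF-10A EV relative to PBS the markers went in both directions, with log2 differences from -2.62 to 2.12 and 4 of 6 above 0. In MDA-MB-231 EV relative to PBS they ran from 0.33 to 1.44, and none was called in either comparison. The markers of pancreas summed to 18.3 to 54.7 TPM and those of skeletal muscle to 0.780 to 12.05 TPM over the 9 libraries, 5 markers each. Sinusoidal endothelium markers summed to 63.5 to 238 TPM, stellate cell markers to 168 to 731 TPM and cholangiocyte markers to 24.0 to 127 TPM. Their part in the levels of the mitochondrial ribosomal proteins was not tested.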
